A study of Mus musculus with 19 samples.

Results

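Trimethylation of lysine 9 on histone H3 (H3K9me3) was lost at day 8 after *Dnmt1* deletion in both replicate pairs at 377 of the 247243 windows of 10 kb that cover mouse chromosomes 1 to 19. A window was kept where its level, the mean of the log2 observed over expected read values of its 2 kb tiles, was lower by 1 or more in the knockout than in the control of the same number in each of 2 day 8 pairs. Because the day 8 H3K9me3 libraries chose the windows, their day 8 H3K9me3 values are given as a description with no test, and the day 4 libraries, the other marks and the sequence are what the choice did not use. The 377 windows, 0.152% of all, joined into 354 regions, of which 332 were a single window and the longest held 3. By the mirror criterion, 107 windows gained H3K9me3 by 1 or more in both pairs.

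The cells were mouse embryonic stem cells (ESCs) with loxP sites at *Dnmt1*, the gene of the methyltransferase that copies DNA methylation after replication. Cre, induced with tamoxifen, removed the gene in the knockout (*Dnmt1* cKO, label Dnmt1 KO), and the control is labelled Wildtype. Every group shared serum and LIF culture, and the labels give E14 as the background strain whereas the methods name C57BL/6. H3K9me3, H3K9me2 and H3K27me3 were each profiled by ChIP-seq in 1 control and 1 knockout library at day 4 and 2 of each at day 8, beside 1 input library from control cells, and nothing states that replicates came from separate cultures. The methods call the ChIP-seq a single measurement, so SDs and p-values here cover only the spread between libraries, which may be technical. An SD of a change is that of the 2 pair differences, so a shift shared by both libraries of a pair drops out of it. The libraries of a pair share only a number. The deletion itself was not checked in these reads. As a check of the cell type, H3K27me3 in controls stood at 0.87 to 4.68 at the promoters of 8 lineage genes such as *Pax6* and *T*, and at -4.34 to 2.38 at those of 8 pluripotency genes, with *Pou5f1* and *Nanog* below 0 and *Klf4* and *Esrrb* above 0 in each control. Libraries held 14627174 to 26181489 reads, except the knockout of day 8 pair 1 for H3K9me3, which held 5669098. That library stands apart in depth and enters every window here. In it the 377 windows had a median of 11 reads, against 80 in its control, 98 in the control of pair 2 and 46 in the knockout of pair 2. Reads come from bulk cells, so fewer marked cells and less mark per cell cannot be told apart.

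H3K9me3 is laid down by methyltransferases such as SETDB1 and marks silent repeats, zinc finger gene clusters and imprinting control regions. At an imprinting control region, 1 parental allele carries DNA methylation and sets which parent's copy of the neighbouring genes is expressed. ZFP57, a zinc finger protein of ESCs and early embryos, binds the methylated hexamer TGCCGC there and recruits KAP1 and SETDB1, so that H3K9me3 sits on the methylated allele. H3K9me2 is a broad mark of less active chromatin, and H3K27me3 is the mark of Polycomb repression.

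To show the hexamer in its sequence, 8 stretches of 160 bases in named regions that hold several copies are printed from the NCBIM37 genome, the build of the table, on the plus strand from 5′ to 3′. Capitals mark TGCCGC and its reverse complement GCGGCA, and each stretch is the one with the most such copies in its region that touched no annotated UTR. The first 5 lie at imprinted genes, in *Nnat* and its host *Blcap* (coding exon), in introns of *Peg3*, *Inpp5f* and *Plagl1*, and beside *H19* (intergenic), and the last 3 at genes that are not on the imprinted list, in an exon of 2010001K21Rik near *Nhlrc1*, at a coding exon of *Habp4* and in an intron of *D6Wsu116e*.
*Nnat*, chr2:157386061-157386220: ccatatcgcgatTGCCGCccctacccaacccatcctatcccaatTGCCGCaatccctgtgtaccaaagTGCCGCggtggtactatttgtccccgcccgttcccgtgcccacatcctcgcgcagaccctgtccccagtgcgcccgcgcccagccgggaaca
*Peg3*, chr7:6682761-6682920: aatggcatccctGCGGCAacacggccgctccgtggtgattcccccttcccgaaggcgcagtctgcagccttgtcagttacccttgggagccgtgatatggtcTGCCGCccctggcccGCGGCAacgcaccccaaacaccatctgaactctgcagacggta
*Inpp5f*, chr7:135831473-135831632: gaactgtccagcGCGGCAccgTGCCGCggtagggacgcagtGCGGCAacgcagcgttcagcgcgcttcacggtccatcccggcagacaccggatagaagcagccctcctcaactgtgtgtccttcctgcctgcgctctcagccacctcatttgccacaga
*H19*, chr7:149766169-149766328: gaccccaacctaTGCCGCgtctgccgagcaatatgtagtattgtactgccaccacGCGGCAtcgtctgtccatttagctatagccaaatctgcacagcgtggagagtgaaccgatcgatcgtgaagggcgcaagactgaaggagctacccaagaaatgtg
*Plagl1*, chr10:12810858-12811017: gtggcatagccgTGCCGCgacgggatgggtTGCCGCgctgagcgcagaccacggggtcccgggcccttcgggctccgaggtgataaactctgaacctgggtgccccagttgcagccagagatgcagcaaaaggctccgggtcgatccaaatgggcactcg
*Nhlrc1*, chr13:47106283-47106442: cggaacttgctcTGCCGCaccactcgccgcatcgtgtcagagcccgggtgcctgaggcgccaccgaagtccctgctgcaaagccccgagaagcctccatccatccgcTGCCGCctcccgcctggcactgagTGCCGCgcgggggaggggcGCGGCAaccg
*Habp4*, chr13:64271193-64271352: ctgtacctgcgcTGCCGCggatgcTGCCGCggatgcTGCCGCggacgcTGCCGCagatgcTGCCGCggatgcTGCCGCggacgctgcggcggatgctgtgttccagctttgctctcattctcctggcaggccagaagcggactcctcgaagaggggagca
*D6Wsu116e*, chr6:116192105-116192264: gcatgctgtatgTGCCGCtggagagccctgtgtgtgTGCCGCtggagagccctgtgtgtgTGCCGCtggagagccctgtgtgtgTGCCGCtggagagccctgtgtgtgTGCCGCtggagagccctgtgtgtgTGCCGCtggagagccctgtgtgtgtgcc
The *Nnat*, *Peg3* and *Inpp5f* stretches held 3 copies each, with 15, 12 and 15 CpG, while those of *H19* and *Plagl1* held 2. The *Nhlrc1* stretch held 4 copies and 18 CpG, and those of *Habp4* and *D6Wsu116e* held 6 copies with 18 and 6 CpG. A match is a description of the letters and not of bound ZFP57.

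The windows fell into a small group with H3K9me3 at the start and a large group with little. In the day 4 control library the median level of the 377 windows was -0.25 (quartiles -0.57 and 0.15), against -0.52 in the 238470 windows with a read. The level was below 0 in 256 windows, from 0 to 0.5 in 67, from 0.5 to 1 in 23 and 1 or more in 31. The bounds of 0.5 and 1 were set after these values were seen. For the 54 windows at 0.5 or more the day 8 levels had medians of 1.36 and 1.12 in the controls of pair 1 and pair 2, and of -0.13 and -0.57 in the knockouts. For the 256 windows below 0 they were -0.40 and -0.17 in the controls and -1.71 and -1.31 in the knockouts. These 256 windows held a median of 9.5 reads in the knockout of pair 1, and the 54 held 30.5.

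**Figure D1:**
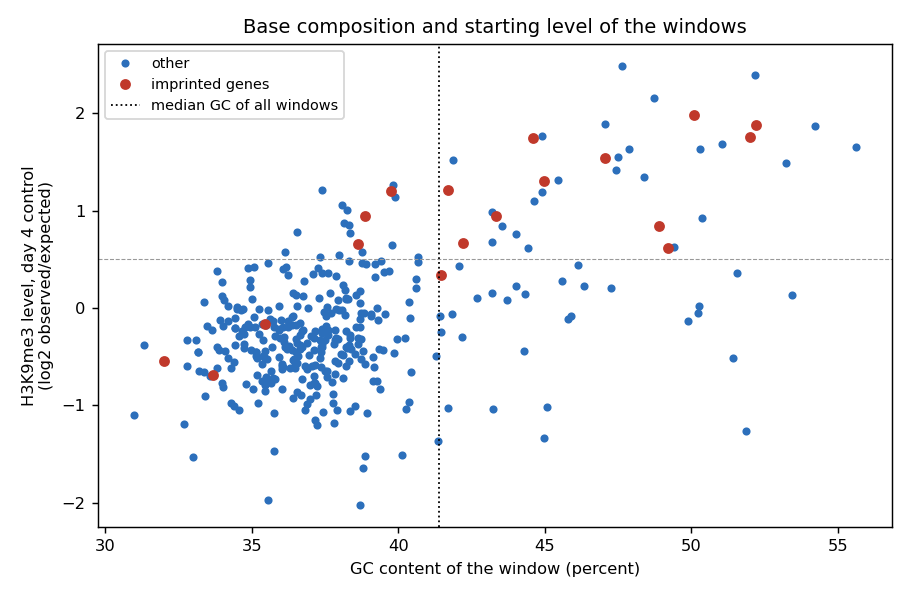
GC content in percent (x axis) and H3K9me3 level of the day 4 control (y axis, log2 observed over expected) of the 377 windows, 1 point per window, with those at imprinted genes in red. Most windows sit left of the dotted median GC of all windows and below a level of 0.5, while the 31 windows at a level of 1 or more have a median GC of 47.0%.

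Both groups differed in base composition. GC content had a median of 36.7% in the 256 low windows and 44.5% in the 54 high ones, against 41.4% in all windows, and the densest 2 kb tile of a window held a median of 11, 44.5 and 22 CpG. Windows of GC below 38%, a bound also set after the values were seen, were lower as a class. The 45942 such windows with a read had median day 8 H3K9me3 changes of -0.38 and -0.29 in the pairs, whereas all windows had -0.09 and 0.02, and 225 of the 377 windows belonged to that class. When each library was centred on windows of equal GC, a setting chosen after seeing the data, 138 windows met the criterion, and they held 42 of the 54 high windows and 25 of the 256 low ones. When reads were summed over a window in place of averaging tile values, 357 windows met it, with 44 of the 54 and 99 of the 256. The part of base composition and of depth in their fall was not tested.

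Genes on the imprinted list were at 18 of the 377 windows (4.77%), against 0.280% of all windows with a read. A window counted as at a gene within 10 kb of its body, and 16 of the 18 overlapped the body itself. Among the 54 high windows the share was 25.9%, which is 14 windows, against 0.804% of the 6216 windows at that level. The 18 windows formed 14 regions, at *Nnat* with *Blcap*, *Gnas* with *Nespas*, *Peg3*, *H19*, *Inpp5f*, *Nap1l5* with *Herc3*, *Plagl1*, *Grb10*, *Zrsr1* with *Commd1*, *Impact*, *Fkbp6* and 3 parts of *Snrpn*. No window lay at the 39 germline genes or the 18 pluripotency genes that the annotation holds. Of all windows with a read only 0.115% and 0.0348% lay at them, so a count of 0 among 377 says little.

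The deepest fall was at *Gnas* (encoding the stimulatory G protein alpha subunit) and its antisense transcript *Nespas*, chr2:174110001-174130000. In its second window, H3K9me3 stood at 2.64 and 1.68 in the day 8 controls and at 0.05 and -1.19 in the knockouts, and at 1.88 and 1.40 in the day 4 control and knockout. The day 8 change was -2.73 ± 0.20 (SD, n = 2 pairs). The tile with the most day 4 control reads was chr2:174124001-174126000, with coding exons and UTRs, 148 CpG and 6 copies of the hexamer. It went from 216 reads to 5 in pair 1 and from 113 to 14 in pair 2. At day 4 it held 117 reads in the control and 96 in the knockout. The day 4 control picked the tile, which tilts these day 4 counts towards a fall. None of these reads is scaled for depth. The pair 1 libraries held 18762413 reads in the control and 5669098 in the knockout, and the day 4 libraries 17557643 and 22299509.

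At *Nnat*, a paternally expressed gene of the brain within an intron of *Blcap*, the window chr2:157380001-157390000 had day 8 levels of 2.30 and 1.84 in controls and 0.24 and -0.96 in knockouts. Its day 4 levels were 1.98 and 1.31 in control and knockout, and its day 8 change was -2.43 ± 0.52 (SD, n = 2 pairs). *Zrsr1*, a retrogene in an intron of *Commd1* (chr11:22870001-22880000), stood at 1.45 and 0.84 in day 8 controls and at -0.77 and -1.79 in knockouts. Its day 4 levels were 1.31 and 0.65. Control and knockout levels did not overlap in either window at day 8, which the choice of windows fixes in part. The day 4 knockouts lay between the day 4 control and the day 8 knockouts.

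*Grb10*, an adaptor that restrains insulin signalling (chr11:11920001-11930000), had day 8 levels of 2.32 and 1.68 in controls and -0.14 and -0.19 in knockouts, after 1.54 and 1.17 at day 4. *Peg3*, a paternally expressed zinc finger gene (chr7:6680001-6690000), had 2.08 and 1.66 in controls and 0.71 and -0.80 in knockouts, after 1.75 and 1.23 at day 4. The knockout libraries differed by more at *Peg3* than the controls did, and its change was -1.92 ± 0.77 (SD, n = 2 pairs). In the *H19* window, which lies within 10 kb of this maternally expressed long noncoding RNA (chr7:149760001-149770000), levels were 2.34 and 1.40 in controls and 1.09 and -0.61 in knockouts, after 1.75 and 1.46 at day 4. Its knockout of pair 1 kept the highest level of the 14 imprinted regions.

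*Plagl1*, a zinc finger transcription factor gene (chr10:12800001-12820000), stood in its deeper window at 1.19 and 0.94 in day 8 controls and at -0.33 and -1.12 in knockouts, after 1.21 and 0.50 at day 4. *Nap1l5*, a retrogene in an intron of *Herc3* (chr6:58850001-58860000), stood at 1.81 and 1.41 in controls and at 0.19 and -0.31 in knockouts, after 1.20 and 0.98. *Inpp5f*, which encodes an inositol phosphatase (chr7:135830001-135840000), stood at 1.08 and 0.92 in controls and at -0.13 and -1.23 in knockouts, after 0.95 and 0.40. All 3 had a CpG-dense tile, of 109, 75 and 71 CpG with 6, 5 and 5 copies of the hexamer.

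*Snrpn*, whose product takes part in splicing, held 5 of the 18 windows in 3 regions of chr7 between 67110001 and 67240000. The highest, chr7:67150001-67160000, stood at 1.32 and 1.14 in day 8 controls and at 0.03 and -0.52 in knockouts, after 0.94 and 0.18 at day 4. The windows that start at 67120001 and 67230001 had day 4 control levels of -0.68 and -0.16. *Impact*, a regulator of translation (chr18:13130001-13140000), stood at 0.79 and 0.54 in day 8 controls and at -0.75 and -1.14 in knockouts, after 0.67 and 0.05 at day 4. *Fkbp6*, a gene of meiosis (chr5:135820001-135830000), had the smallest change of the imprinted regions with a level above 0.5, -1.26 ± 0.08 (SD, n = 2 pairs).

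**Figure D2:**
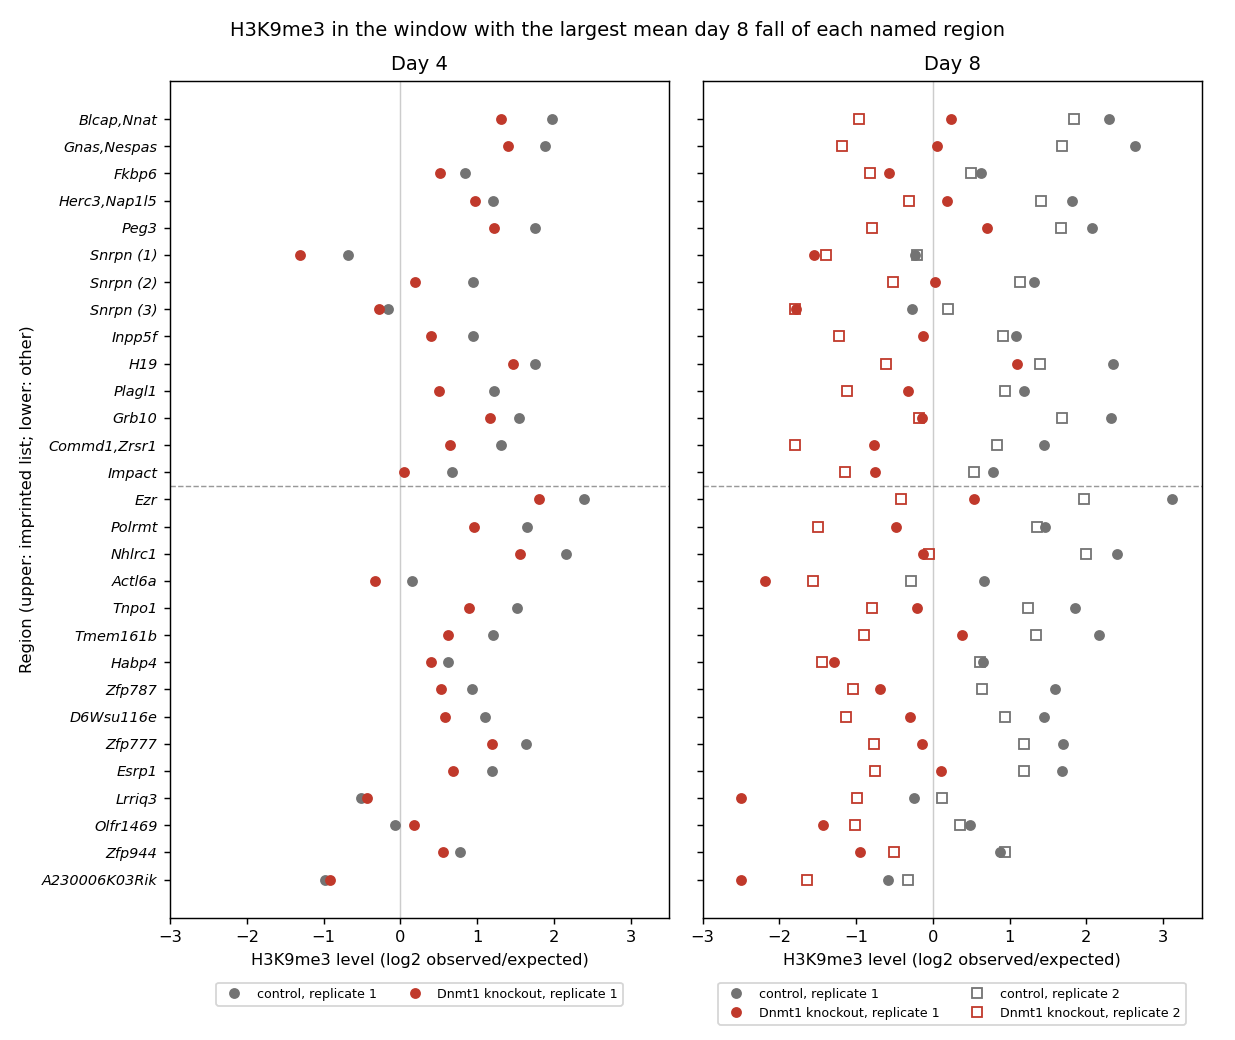
H3K9me3 level (x axis, log2 observed over expected) in the window with the largest mean day 8 fall of each named region (y axis), in the day 4 libraries (left) and the day 8 libraries (right), 1 point per library, controls in grey and knockouts in red, replicate 1 filled circles and replicate 2 open squares. The day 8 knockouts lie left of both controls in all 14 imprinted regions above the dashed line and in all 15 others below it, which the choice of windows fixes in part, and at day 4 the knockout is lower in 14 of 14 and 12 of 15.

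Not every imprinted domain with H3K9me3 was among them. Of 30 listed domains, 21 had a window at a day 4 control level of 0.5 or more, and 12 of these held a chosen window. The highest of the rest, at *Meg3* and *Dlk1* (chr12:110760001-110770000), had a level of 2.58 and day 8 changes of -0.70 and -1.48. At *Igf2r* the changes were -0.99 and -1.49 and at *Mest* -0.63 and -1.43, so that pair 2 passed the bound and pair 1 did not. The highest of 73 windows of the *Peg10* domain, chr6:4870001-4880000 (level 2.00), had changes of -0.13 and -0.05. Its tiles held at most 28 CpG and 0 copies of the hexamer, so these values do not describe the control region of *Peg10*. At *Rasgrf1* the highest window within 10 kb of the gene had 0.55 and 0.36, but a chosen window, chr9:89770001-89780000, lay 24613 bases from the gene's start, outside that limit, with a level of 1.42, 6 copies of the hexamer in a tile and changes of -1.21 and -1.61. It was named after its values were seen and is counted as not imprinted.

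Among the 40 high windows outside the imprinted list, *Ezr* showed the deepest loss. *Ezr* (ezrin, a linker of membrane and actin, chr17:6940001-6960000) stood at 3.11 and 1.97 in day 8 controls and at 0.54 and -0.42 in knockouts, after 2.40 and 1.81 at day 4. *Polrmt* (the mitochondrial RNA polymerase, chr10:79200001-79210000) stood at 1.46 and 1.36 in controls and at -0.48 and -1.5 in knockouts, after 1.65 and 0.96. *Nhlrc1* (the ubiquitin ligase malin, chr13:47100001-47110000) stood at 2.40 and 2.00 in controls and at -0.13 and -0.05 in knockouts, after 2.16 and 1.55. These levels and falls were of the size seen at *Gnas* and *Nnat*. In *Polrmt* the tile with the most day 4 control reads was a coding part of the gene with 86 CpG. It went from 270 reads to 11 in pair 1 and from 143 to 12 in pair 2. These reads, too, are not scaled for the lower depth of the knockout of pair 1.

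*Tnpo1* (a nuclear import receptor) had a change of -2.05 ± 0.02, *Tmem161b* of -2.01 ± 0.32, *Habp4* of -2.0 ± 0.08, *Zfp787* of -1.97 ± 0.43, *D6Wsu116e* of -1.91 ± 0.23 and *Zfp777* of -1.90 ± 0.09 (SD, n = 2 pairs each), from day 4 control levels of 0.62 to 1.63. At *Tnpo1* the day 8 levels were 1.85 and 1.24 in controls and -0.21 and -0.79 in knockouts. Its SD of 0.02 therefore hides the differences between libraries of the same genotype. The window nearest the start of *Esrp1*, a splicing regulator, changed by -1.75 ± 0.26 from a level of 1.20. *Actl6a*, a subunit of BAF chromatin remodelling complexes, changed by -2.06 ± 1.12 from 0.15, with 17 copies of the hexamer. Its pairs gave -2.85 and -1.27, on 6 reads in the knockout of pair 1. The last 4 of the 15 largest falls outside the list lay between genes near *Lrriq3*, *Olfr1469*, *Zfp944* and A230006K03Rik, on 4 to 17 reads in that knockout, with day 4 control levels of -0.98 to 0.78.

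Genes named as zinc fingers by their symbol were at 7 of the 377 windows (1.86%) against 0.985% of all windows. Of these, 5 were among the 54 high windows (9.26%), where 61 of 6216 windows at that level had one (0.981%). They lay at *Zfp777*, *Zfp787*, *Zfp629*, *Zfp13* with *Zfp213* and, beside *Habp4*, *Zfp367*, and the day 4 change at all 7 ran from -0.45 to 0.13. Vomeronasal receptor genes, a family chosen after the values were seen, were at 12 windows (3.18% against 0.494%), of which 1 was high, and olfactory receptor genes at 8 (2.12% against 1.00%, and 2.26% of all windows of GC below 38%). Chromosomes 7, 4 and 17 held 122 of the windows. On chromosome 17 they were 0.361% of all windows with a read and on chromosome 18 they were 0.0685%. Windows over *Neat1*, a long noncoding RNA of nuclear paraspeckles (chr19:5830001-5850000), were also chosen and are named outside the rule. Their changes were -1.53 and -1.45 in the first and -1.17 and -1.32 in the second, from levels of 0.28 and -0.51. Another window over the gene, chr19:5820001-5830000, was not chosen and went the other way, by 0.98 and 0.20.

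Closest to the bound, the 3 windows just inside had a larger pair change of -1.001 each, at *Vmn2r17*, 2610316D01Rik and *Cntnap2*. The 3 just outside, near Gm1818, *Lrrc4c* and *Cox7c*, had -0.9996, -0.9993 and -0.9992.

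The hexamer gathered in the high windows. At least 3 copies in one 2 kb tile were found in 25 of the 54 (46.3%), against 2.73% of the 6216 windows at that level and 1.39% of all windows. At imprinted genes 10 of the 18 had them (55.6%). The count also follows CpG content, so windows with at least 50 CpG in a tile were set apart. Of 36 such windows among the 377, 19 had 3 copies or more (52.8%), and of all 21435 such windows 10.2% did. In the 256 low windows the share was 0.781%. Genes overlapped 38 of the 54 high windows (70.4%) and 67 of the 256 low ones (26.2%), against 46.6% of all windows.

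At day 4, which took no part in the choice, H3K9me3 was already lower in the knockout at every one of the 54 high windows. Their median change was -0.45 (quartiles -0.58 and -0.29), whereas the 6216 windows at that level had a median of -0.14 and 75.4% of them were lower. The day 4 control gives both the level and the change, which tilts high windows towards a fall, so windows in the same range of level are set side by side. Levels still differed within a range, with medians of 1.17 in the 54 windows and 0.72 in the 6216, so the tilt is not fully removed. At a level of 1 or more the median change was -0.52 in 31 windows, against -0.18 in 1337. The 256 low windows had a median of -0.08 against 0.04, and 66.8% were lower against 44.7%. All windows of GC below 38% had a median of -0.05, and 56.7% of them were lower. A change of -0.5 or less was found in 54 of the 377 windows (14.3%), against 4.27% of all windows. These 2 sets were not matched for level, with medians of -0.25 and -0.52. In the 54 high windows it was found in 24 (44.4%), against 4.55% of windows at that level. With 1 library per genotype there was no test of the day 4 difference.

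**Figure D3:**
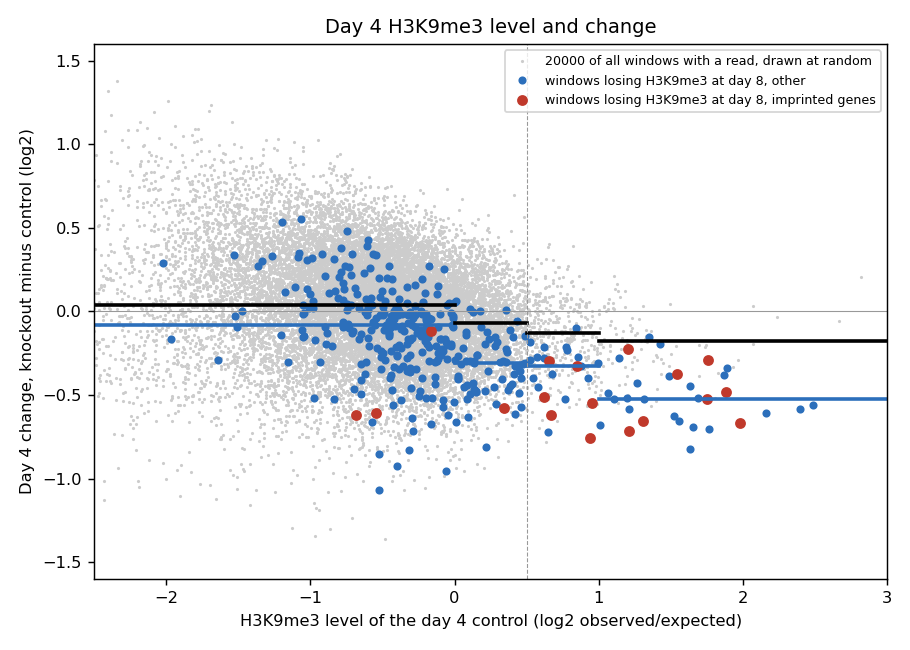
H3K9me3 level of the day 4 control (x axis) and day 4 change, knockout minus control (y axis), both on the log2 scale, 1 point per window. Horizontal lines give medians of the chosen windows (blue) and of all windows (black) below 0, from 0 to 0.5, from 0.5 to 1 and from 1 upwards, and the blue lines lie below the black in each range, by the most from 1 upwards (-0.52 against -0.18).

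In reads, the day 4 knockout to control ratio of the share of library reads in the deepest window of the 14 imprinted regions ran from 0.597 to 0.885. Its exact 95% binomial interval, which covers counting error only, lay below 1 in 13 of 14. The exception was the *Snrpn* window at 67230001, with 0.885 (0.648 to 1.21). At *Nnat* it was 0.632 (0.54 to 0.738), from 369 reads in the control and 296 in the knockout. The other 15 regions had ratios from 0.558 at *Polrmt* to 1.09 near *Olfr1469*, and the interval lay below 1 in 11. How many of all windows have such an interval was not counted. Of the 6216 windows at a level of 0.5 or more, 75.4% were lower at day 4, so these counts alone do not set the regions apart. The 5 largest day 4 falls among the 377 windows were near Gm9008 (-1.07), at *Tmem161b* (-0.96) and near *Klra4*, *Trhr* and *Pcdh17* (-0.92, -0.85 and -0.83). Those windows had levels of -0.53 to -0.06 and 60 to 85 reads in the control, so that they belonged to the low group.

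Around the most CpG-rich tile of each of the 54, the mean day 8 change was -1.76 and -1.98 in the pairs at the tile itself, -0.64 and -0.69 at 10 kb on either side, -0.35 and -0.24 at 20 kb towards lower coordinates and -0.52 and -0.50 at 20 kb towards higher ones. The mean day 4 change was -0.49 at the tile, -0.33 and -0.22 at 10 kb towards lower and higher coordinates, and 0.04 and -0.12 at 20 kb. In the 256 low windows the day 8 means were -1.21 and -1.25 at the tile, -0.37 and -0.48 at 20 kb towards lower coordinates and -0.50 and -0.44 towards higher ones. Their day 4 mean was -0.02 at the tile and -0.09 and -0.07 at 20 kb. Windows that adjoin a chosen window but did not meet the criterion, 703 in all, had median day 8 changes of -0.50 and -0.52. Of these, 30.4% fell by 0.5 or more in both pairs, against 4.78% of all windows. All windows of GC below 38%, a class that holds 225 of the 377, had medians of -0.38 and -0.29. The part of base composition in the neighbours was not tested, and their values come from the libraries that chose the windows.

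**Figure D4:**
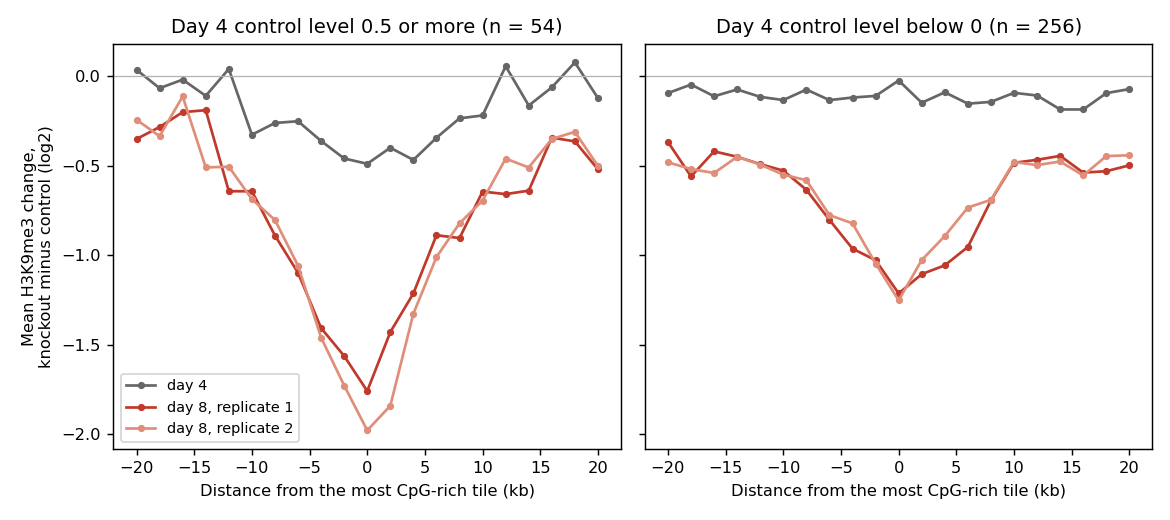
Mean H3K9me3 change, knockout minus control (y axis, log2), by distance in kb from the most CpG-rich 2 kb tile of each window (x axis), for the 54 windows at a day 4 control level of 0.5 or more (left) and the 256 below 0 (right), with day 4 in grey and the day 8 pairs in red tones. Day 8 lines dip in both panels, since the windows were chosen on them, while the day 4 line reaches -0.49 at the tile on the left and stays between -0.19 and -0.02 on the right.

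The median day 4 control level of H3K9me2 was -1.15 in the 54 high windows and -1.94 in the 18 at imprinted genes. It was -0.48 in the 6216 windows in the same range of H3K9me3 level and -1.74 in all windows with at least 50 CpG in a tile. In the low windows it was -0.36, near the -0.44 of windows below 0. At day 4 the median H3K9me2 change was 0.16 in the 54 windows and 0.26 in the imprinted ones, 0.13 in all windows with at least 50 CpG in a tile and 0.02 in all windows.

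At day 8 the pairs differed for H3K9me2. In pair 2 it was higher in the knockout in 18 of 18 imprinted windows, with a median change of 1.23, and in pair 1 in 8 of 18, with a median of -0.06. Of the 668 windows with a read at imprinted genes, 405 were higher in pair 2 and 419 in pair 1. Of the 21435 windows with at least 50 CpG in a tile, 17416 and 14223 were. At *Peg3* the levels were -2.05 and -2.32 in controls and -2.27 and -0.70 in knockouts, so that 1 knockout lay among the controls and the other above them. At *Snrpn* (chr7:67150001-67160000) they were -2.07 and -2.29 in controls and -0.86 and -1.06 in knockouts, with no overlap. All windows with at least 50 CpG in a tile had medians of 0.19 and 0.68 in the pairs, so CpG-dense windows as a class were higher too, and by more in pair 2. The low windows had medians of -0.46 and -0.19, and all windows of GC below 38% had -0.31 and -0.05.

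Over the 377 windows the H3K9me2 medians were -0.41 and -0.11 in the pairs, against 0.00 and 0.02 in all windows and -0.31 and -0.05 in all windows of GC below 38%. The median of the mean of both pairs, -0.28, turned to 0.0838 with centring within GC bins and to 0.60 for the 22 windows at a bound of -1.5. A change of -0.5 or less in both pairs was found in 26 (6.90%, against 0.912% of all windows) and one of 0.5 or more in 7 (1.86% against 5.06%). Of the 26, 21 were low windows, and 23 had GC below 38%, where 2.64% of all windows changed so. Of the 7, 6 were high windows and 3 lay at imprinted genes. By limma on log2 levels over all windows, with Benjamini-Hochberg adjustment, no window passed an adjusted p of 0.05 in H3K9me2 (0% of all windows). At an unadjusted p of 0.05, 52 of the 377 were lower (13.8%, against 1.98% of all windows) and 11 higher (2.92% against 5.23%). The smallest adjusted p among the 377 was 0.678, and limma-voom on the recovered reads called 0. Without the knockout of pair 1 limma called 29 (7.69%, against 9.41% of all windows), 26 of them higher (6.90% against 9.25%).

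**Figure D5:**
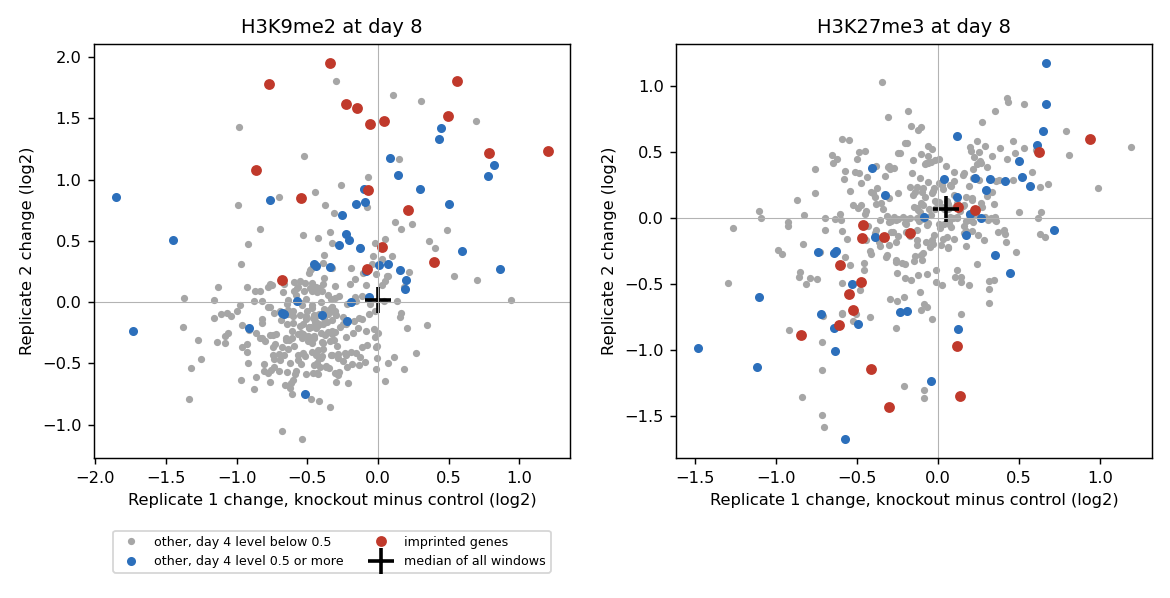
Day 8 change of H3K9me2 (left) and H3K27me3 (right), knockout minus control on the log2 scale, in replicate 1 (x axis) and replicate 2 (y axis), 1 point per chosen window, with imprinted genes in red, other windows at a day 4 H3K9me3 level of 0.5 or more in blue and the rest in grey. The cross is the median of all windows. The red points lie above 0 on the H3K9me2 y axis in 18 of 18 and on both sides of 0 on its x axis, while the grey points centre below and left of the cross. Of all 21435 windows with at least 50 CpG in a tile, 17416 were above 0 on that y axis.

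H3K27me3 moved little over the windows as a whole. The day 4 control level had a median of -0.88 in the 377 windows and -0.68 in all, and the day 8 changes had medians of -0.09 and 0.00, against 0.05 and 0.06. In the 18 imprinted windows they were -0.37 and -0.42, and in all 21435 windows with at least 50 CpG in a tile -0.17 and -0.29. Single windows differed. *Grb10* carried H3K27me3 in each library, at 2.90 and 2.56 in day 8 controls and 2.43 and 2.41 in knockouts. *Gnas* stood at 1.71 and 1.25 in controls and at 1.16 and 0.67 in knockouts. *Fkbp6* and *H19* were higher in both knockouts than in their controls, by 0.94 and 0.59 and by 0.63 and 0.50, and *Nhlrc1* by 0.67 and 1.17.

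A change in H3K27me3 of -0.5 or less in both pairs was found in 23 of the 377 windows (6.10%, against 3.68% of all), 12 of them high, and one of 0.5 or more in 10 (2.65% against 2.55%). Limma called no window at an adjusted p of 0.05 (0% of all windows). At an unadjusted p of 0.05, 36 were lower (9.55%, against 6.27%) and 13 higher (3.45% against 5.3%). The smallest p was at *Tmem161b* (chr13:84370001-84380000), from -1.30 and -1.41 in controls to -2.78 and -2.40 in knockouts, with an adjusted p of 0.126. With the eBayes trend limma called 4 of the 377 (1.06%, against 0.816% of all windows), and limma-voom on the recovered reads called 9 (2.39% against 1.63%). Without the knockout of pair 1 limma called 16 (4.24% against 2.63%), without the knockout of pair 2 it called 5 (1.33% against 0.497%), and without the control of pair 2 it called 1 (0.265% against 0.318%).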

How the data were processed

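ChIP-seq of H3K9me3, H3K9me2 and H3K27me3 was analysed in 18 libraries beside 1 input. Per the methods, the authors trimmed reads with Trim Galore, aligned them with Bowtie2 (2.2.9 in the submitters' processing notes) to NCBIM37 and discarded alignments of low mapping quality. Removal of duplicates is not given in the sources used here. The authors deposited 1 table of log2 values of observed over expected reads in 2 kb tiles, although the methods name another tile size. A tile without reads holds the value of 0.9 read, and the low values tested gave whole reads in 100% of cases. The number of table columns that could not be tied to a sample was 0.

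Window levels are means of tile values over 10 kb. Day 8 H3K9me2 and H3K27me3 levels were compared with limma 3.58.1 in R 4.3.3 over the windows with a read (2 controls, 2 knockouts, no block, Benjamini-Hochberg adjustment). The fit was also run on simulated reads without effects of base composition or replicate, so that run says nothing of those effects here. An exact permutation test of 2 against 2 cannot go below 0.333. Ratios of the shares of library reads have exact 95% binomial intervals, which cover counting error only, and p-values measure only the spread between these libraries. Python 3.11.15 with pandas 2.3.3, numpy 2.4.6, scipy 1.17.1 and matplotlib 3.10.9 did the rest, and genes came from the NCBIM37 Ensembl annotation in GENCODE vM1.

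The windows and gene lists were chosen with earlier results of these data known. Of the listed symbols, 84 of 103 imprinted, 39 of 43 germline and 18 of 19 pluripotency genes matched the annotation. Named were every region at an imprinted gene, the 15 other regions with the largest mean fall, the 3 windows on each side of the bound, the 5 windows with the largest day 4 fall, and for each other mark up to 5 windows called by limma. Alternatives were summed reads, shifted windows, centred libraries, another bound, all 4 knockout and control differences, tiles of high input left out, libraries left out, a replicate block, an eBayes trend, a read minimum and limma-voom.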

Additional observations from a re-analysis of the deposited data

Results flagged for a closer look

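Chromosomes X and Y lay outside the windows described above. On X, 39 of 15923 windows with a read lost H3K9me3 by 1 or more in both day 8 pairs (0.245%). In 31 of the 15923 both day 8 controls were lower by 1 or more than the day 4 control, a comparison with no knockout in it. Among the 238470 windows with a read described above, this comparison among controls gave 87 (0.0365%), where 377 lost H3K9me3 in both pairs. On Y, 35 of 263 windows met the criterion (13.3%), and the same comparison among controls gave 0. Over all Y windows the median change was -0.48 and -0.84 in the day 8 pairs and -0.33 at day 4.

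Of the 377 windows, 90 had a higher H3K9me3 level in the knockout at day 4. Their lower level in both day 8 pairs is fixed by the choice of windows. At day 4, 76.1% of the 377 were lower, against 47.7% of all windows with a read. A higher day 4 level was found in 3 of the 15 named regions outside the imprinted list. The day 4 change was 0.09 near *Lrriq3*, 0.25 near *Olfr1469* and 0.06 near A230006K03Rik. The difference between the days was not tested.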

How the results depend on the processing

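The 377 windows became 357 with summed reads, 397 with windows shifted by 5 kb, and 390 without tiles of highest input. They became 191 with centred libraries, 22 at a bound of -1.5, 162 where all 4 knockout and control differences had to pass, and 138 with centring within GC bins, which was chosen after seeing the data. Leaving out a replicate pair gave 2556 to 9757. Windows at imprinted genes numbered 18, 9 at -1.5, 30 to 39 without a pair and 15 to 21 under the other settings. The median day 4 H3K9me3 change of -0.17 became -0.30 with summed reads, -0.25 centred, -0.52 at -1.5, -0.26 with all 4 differences and -0.35 within GC bins, and it ran from -0.127 to -0.0526 without a pair. The median H3K9me2 change of -0.28 turned to 0.60 at -1.5 and 0.0838 within GC bins, and ran from -0.23 to -0.10 without a pair. The median H3K27me3 change of -0.03 became -0.16 centred, -0.48 at -1.5, -0.10 with all 4 differences and -0.36 within GC bins, and ran from -0.0306 to 0.0476 without a pair, turning sign without pair 1. The cause was not tested. Limma calls among the windows ran from 0 to 29 in H3K9me2 and from 0 to 16 in H3K27me3 with 1 library left out, at most 7.69% and 4.24% of the windows against 9.41% and 2.63% of all windows, where a lone sample is assumed to vary like the other group. For H3K27me3 they numbered 9 with limma-voom (2.39% against 1.63%) and 4 with the eBayes trend (1.06% against 0.816%). Replicates share only a number, with correlations of same-numbered deviations of 0.19 in H3K9me2 and 0.23 in H3K27me3, and a replicate block called 0 windows in H3K9me2 and 6 in H3K27me3 (1.59% against 1.35%). Depth limits most the windows below a level of 0, with 9.5 median reads in the shallow knockout.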
